A study of Rattus norvegicus with 30 samples.

Results

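The response of rat hearts to isoproterenol was compared between 3 h and 1 h after a single dose, on the 15 arrays titled 3 h or 1 h among the 30 arrays of the series. The hearts came from male Wistar Han rats (Crl:Wi(Han)). There were 4 arrays of isoproterenol hearts and 3 of vehicle hearts at 3 h, and 5 of isoproterenol hearts and 3 of vehicle hearts at 1 h. The labels give the isoproterenol dose as 0.5 mg/kg/ml and the vehicle dose as 0. The quantity tested was the isoproterenol minus vehicle difference at 3 h minus the same difference at 1 h, called the interaction below, for every probe set of the array. A positive interaction means a higher effect at 3 h than at 1 h, whether a rise grew or a fall faded.

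Isoproterenol is a catecholamine drug that stimulates the beta-adrenergic receptors. In heart muscle these receptors raise cyclic AMP, which activates protein kinase A and the transcription factor CREB, and the calcium and kinase signals that come with faster beating switch on immediate early genes. The products of such genes are mostly transcription factors and signal inhibitors, whose transcripts are short-lived, and genes of growth, ribosome making and structure commonly follow later. A bulk heart sample mixes cardiomyocytes, endothelial cells, fibroblasts and blood cells, and in such a sample fewer cells of a type and less RNA per cell cannot be told apart.

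All levels below are normalized log2(intensity + 16) values, and all effects and interactions are differences on that scale with the standard error from limma after ±. A probe set or gene is said to be called where its limma p, adjusted by the Benjamini-Hochberg method over all probe sets tested, was below 0.05. The titles call the arrays biological replicates without saying whether each is a separate animal, so p-values measure the spread between samples. That spread was estimated within groups over all 30 arrays of the series, not over the 15 alone. Array medians of the deposited intensity lay between 21.2 and 45.4, and the median correlation of an array with others of its group lay between 0.939 and 0.978. Isoproterenol arrays carry numbers 33 to 37 at 1 h and 38 to 41 at 3 h. Vehicle arrays carry 4 to 6 at 1 h and 7 to 9 at 3 h. The order of the arrays is thus confounded with treatment and, within each treatment, with time, and they cannot be told apart. The beta-actin 3' minus 5' difference, a measure of RNA integrity, was 1.91 ± 0.134 in isoproterenol hearts of 3 h (SD, n = 4) and 1.03, 0.84 and 1.96 in the 3 vehicle hearts of 3 h. At 1 h it was 1.85 ± 0.185 in isoproterenol hearts (SD, n = 5) and 1.56 ± 0.0321 in vehicle hearts (SD, n = 3). That measure thus moves with treatment at 3 h in vehicle replicates 1 and 2 but not in replicate 3, and its part in the results was not tested. Summed intensity of 19 cardiomyocyte markers lay between 139000 and 145000 on all 15 arrays, as the tissue label says.

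The effect differed between the times for few probe sets. Of 24292 probe sets tested, 141 had a called interaction (0.58% of those tested), 95 positive and 46 negative, and 2974 had an unadjusted p below 0.05. For comparison, 2764 probe sets (11.4%) had a called isoproterenol effect at 3 h, 6.1% of those tested higher and 5.28% lower, and 643 (2.65%) had one at 1 h, 1.83% higher and 0.815% lower. The standard error of an interaction had a median of 0.33, against 0.24 for the effect at 3 h and 0.23 for the effect at 1 h, since it carries the error of 4 groups. Among genes, each taken by its brightest probe set, 91 of 12451 were called (0.731%), 65 positive and 26 negative.

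When single arrays were left out, the count of 141 was 65, 89 and 66 without vehicle replicate 1, 2 and 3 of 1 h, and 82, 95 and 197 without vehicle replicate 1, 2 and 3 of 3 h, against 100 to 188 without single isoproterenol arrays. Without normalization 5 probe sets were called, none of them a gene named below. The share of positive calls was also set by the scaling, with 95 positive and 46 negative under quantile normalization, 91 and 18 under median centring and 172 and 48 under trimmed mean scaling.

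The calls at each time sort the interactions by shape. A building rise, with a called rise at 3 h and a positive interaction, was found for 88 probe sets, of which 78 had no call at 1 h and 10 were already higher at 1 h. A building fall was found for 35, of which 33 had no call at 1 h. A fading rise, with a called rise at 1 h and a negative interaction, was found for 11, of which 4 were still called higher at 3 h. A fading fall was found for 6, and all 6 had lost the call at 3 h. No probe set was called in opposite directions at the 2 times, and 1 fell in no class. That was B3galnt1, with an interaction of 1.37 ± 0.32 (adjusted p = 0.0338), called in 6 of 15 fits that left out 1 array (adjusted p up to 0.108). The sorting uses the same calls as the counts and adds no test of its own.

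**Figure D1:**
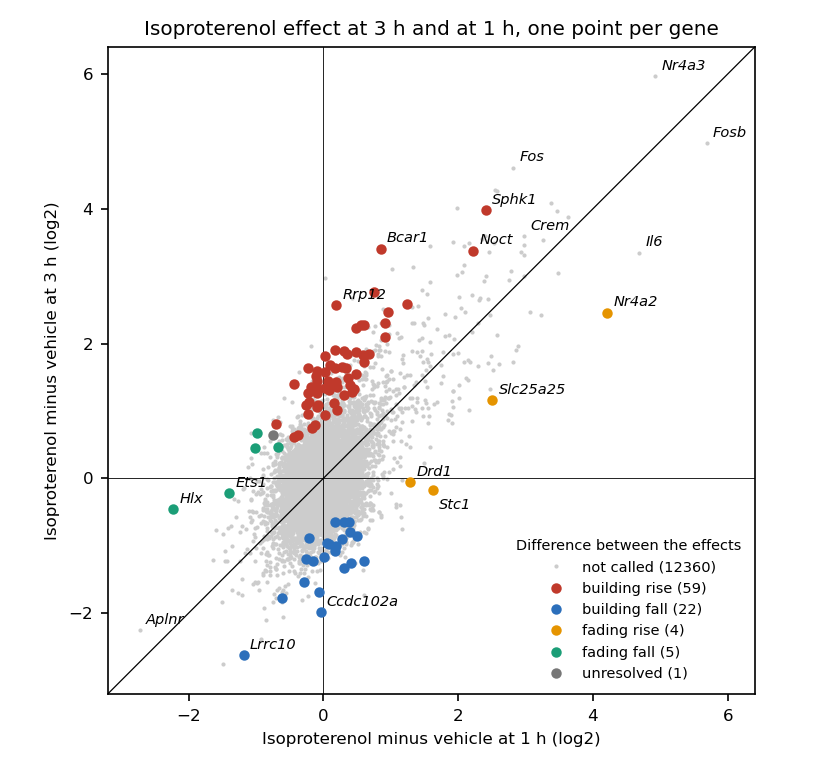
Isoproterenol minus vehicle difference at 3 h (vertical axis, log2) against the same difference at 1 h (horizontal axis, log2), with 1 point per gene and the line of equal effect. The 59 building rises (red) lie above the line and the 22 building falls (blue) below it. Nr4a2 and Slc25a25 (orange) lie far to the right and below the line. Fosb, Nr4a3 and Crem had large effects at both times and no called interaction.

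Most genes that responded at 1 h were not shown to change their effect by 3 h. Of 445 probe sets called higher at 1 h, 351 were also called higher at 3 h and 94 were not, yet the interaction was called negative for 11 and positive for 10. Of 198 called lower at 1 h, 91 were also called lower at 3 h, and the interaction was called positive for 6 and negative for 2. In the other direction, 1131 probe sets were called higher at 3 h and not at 1 h, and the interaction was called for 78 of them. Of 1191 called lower at 3 h and not at 1 h, it was called for 33. A call at 3 h alone was therefore seldom joined by a called difference between the times.

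Promoter windows of the called genes, 300 bases from 250 before to 50 after the annotated start, were searched on both strands for 6 motifs of factors known from such responses. The 59 building rise genes had 67 windows for 50 of them. The E-box CACGTG, bound by Myc and related factors, was in 10 of the 67 (14.9%), against 6.42% of all 33469 windows in the table. The full cyclic AMP response element TGACGTCA was in 2 (2.99%, against 1.83% of all) and its core TGACG, which lies within the full element, in 23 (34.3%, against 21.2%). The AP-1 motif TGAGTCA was in 5 (7.46%, against 4.63%), the Egr motif GCGGGGGCG in 4 (5.97%, against 2.73%) and the CArG box of serum response factor in 0 (against 1.64%). The 21 windows of building falls held the E-box in 2 (9.52%) and the full cyclic AMP response element in 1 (4.76%), and of 3 windows of fading rises 1 held the full element. A match is only an occurrence of the letters in the window, and these shares are a description.

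The windows of 4 genes are printed as examples of genes, described below, that hold the full cyclic AMP response element or the E-box, which are in capitals. They come from RefSeq on build GRCr8, 5' to 3' on the gene's own strand. Slc25a25, whose rise faded, and Lmcd1, whose rise built up, both hold the full cyclic AMP response element, beginning 158 and 192 bases before the start. Slc25a25 is at chr3:36116532-36116831 on the minus strand and Lmcd1 at chr4:146948743-146949042 on the plus strand. Rrp12, at chr1:250655269-250655568, and Rrp8, at chr1:169500424-169500723, both on the minus strand, hold an E-box that begins at transcribed base 4 and 14.
Slc25a25: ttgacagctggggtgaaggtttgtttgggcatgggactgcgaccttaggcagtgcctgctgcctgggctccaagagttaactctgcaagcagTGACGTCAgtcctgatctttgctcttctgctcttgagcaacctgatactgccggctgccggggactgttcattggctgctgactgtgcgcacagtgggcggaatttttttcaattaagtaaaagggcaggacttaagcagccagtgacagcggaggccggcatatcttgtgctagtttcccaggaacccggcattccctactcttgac
Lmcd1: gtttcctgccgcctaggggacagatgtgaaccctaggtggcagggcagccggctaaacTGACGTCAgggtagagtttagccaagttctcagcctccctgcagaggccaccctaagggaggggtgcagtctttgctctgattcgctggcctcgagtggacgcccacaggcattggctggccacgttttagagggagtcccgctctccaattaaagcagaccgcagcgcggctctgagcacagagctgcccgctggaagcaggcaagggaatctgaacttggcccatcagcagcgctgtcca
Rrp12: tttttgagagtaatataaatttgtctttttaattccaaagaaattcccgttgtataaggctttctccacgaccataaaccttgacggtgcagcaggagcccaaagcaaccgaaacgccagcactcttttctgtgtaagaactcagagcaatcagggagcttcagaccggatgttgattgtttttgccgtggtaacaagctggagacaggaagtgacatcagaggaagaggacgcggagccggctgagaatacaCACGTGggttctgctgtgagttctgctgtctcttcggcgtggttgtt
Rrp8: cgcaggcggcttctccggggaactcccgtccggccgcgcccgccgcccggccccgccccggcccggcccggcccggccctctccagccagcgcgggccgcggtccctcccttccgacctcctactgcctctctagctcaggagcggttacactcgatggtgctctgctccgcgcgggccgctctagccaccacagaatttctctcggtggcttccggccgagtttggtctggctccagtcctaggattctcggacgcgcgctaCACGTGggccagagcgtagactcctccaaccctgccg

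Among the fading rises was Nr4a2, an orphan nuclear receptor of the immediate early class. Nr4a2 read 7.69, 8.42, 7.47 and 8.36 in isoproterenol hearts of 3 h and 6.0, 5.91 and 4.67 in vehicle hearts of 3 h. At 1 h Nr4a2 read 9.86, 9.56, 9.85, 9.73 and 9.94 in isoproterenol hearts of 1 h and 5.98, 5.35 and 5.40 in vehicle hearts of 1 h. All isoproterenol hearts lay above all vehicle hearts at both times, those of 3 h all lay below those of 1 h, and the vehicle hearts of the 2 times overlapped. The effect was 2.46 at 3 h and 4.21 at 1 h, and the interaction was -1.75 ± 0.38 (adjusted p = 0.0234). The other Nr4a2 probe set had an interaction of -1.89 ± 0.35 (adjusted p = 0.00467). The call of the brighter probe set was lost without vehicle replicate 2 or 3 of 1 h, vehicle replicate 1 or 2 of 3 h, or isoproterenol replicate 3 of 3 h, with adjusted p up to 0.0895.

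Stc1, which encodes the secreted glycoprotein stanniocalcin 1, was called higher after isoproterenol at 1 h and not at 3 h. Stc1 read 6.81, 7.46, 6.96 and 6.93 in isoproterenol hearts of 3 h and 7.01, 7.33 and 7.30 in vehicle hearts of 3 h. At 1 h Stc1 read 9.63, 8.75, 9.33, 8.32 and 8.85 in isoproterenol hearts of 1 h and 7.75, 7.05 and 7.28 in vehicle hearts of 1 h. The groups overlapped at 3 h and were fully apart at 1 h. Its effect was -0.17 (adjusted p = 0.674) at 3 h and 1.62 (adjusted p = 1.47e-06) at 1 h, with an interaction of -1.79 ± 0.29 (adjusted p = 0.00204) that was called in all 15 fits that left out 1 array. The other Stc1 probe set had an interaction of -1.71 ± 0.33 (adjusted p = 0.00716).

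Slc25a25 encodes a calcium-regulated carrier of ATP-magnesium and phosphate in the mitochondrial inner membrane. Slc25a25 read 7.35, 7.59, 6.97 and 7.33 in isoproterenol hearts of 3 h and 6.77, 5.95 and 5.72 in vehicle hearts of 3 h. At 1 h Slc25a25 read 9.60, 9.54, 9.61, 9.21 and 9.76 in isoproterenol hearts of 1 h and 6.71, 7.41 and 6.97 in vehicle hearts of 1 h. Isoproterenol hearts were above vehicle hearts at both times, by 1.16 at 3 h and by 2.51 at 1 h. The interaction was -1.35 ± 0.32 (adjusted p = 0.0418), and the call held in 5 of 15 fits that left out 1 array (adjusted p up to 0.155). Drd1, the dopamine D1 receptor gene, was dim in every group but isoproterenol hearts of 1 h and had an interaction of -1.34, whose 3 h effect is a difference between dim groups. Drd1 read 4.16, 4.47, 4.15 and 4.13 in isoproterenol hearts of 3 h and 4.20, 4.30 and 4.34 in vehicle hearts of 3 h. At 1 h Drd1 read 5.79, 5.07, 5.63, 5.51 and 5.13 in isoproterenol hearts of 1 h and 4.17, 4.13 and 4.10 in vehicle hearts of 1 h. Isoproterenol hearts of 1 h stood above the other 3 groups, isoproterenol hearts of 3 h overlapped both vehicle groups, and the interaction (adjusted p = 0.0491) was called in 3 of 15 such fits (adjusted p up to 0.124).

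**Figure D2:**
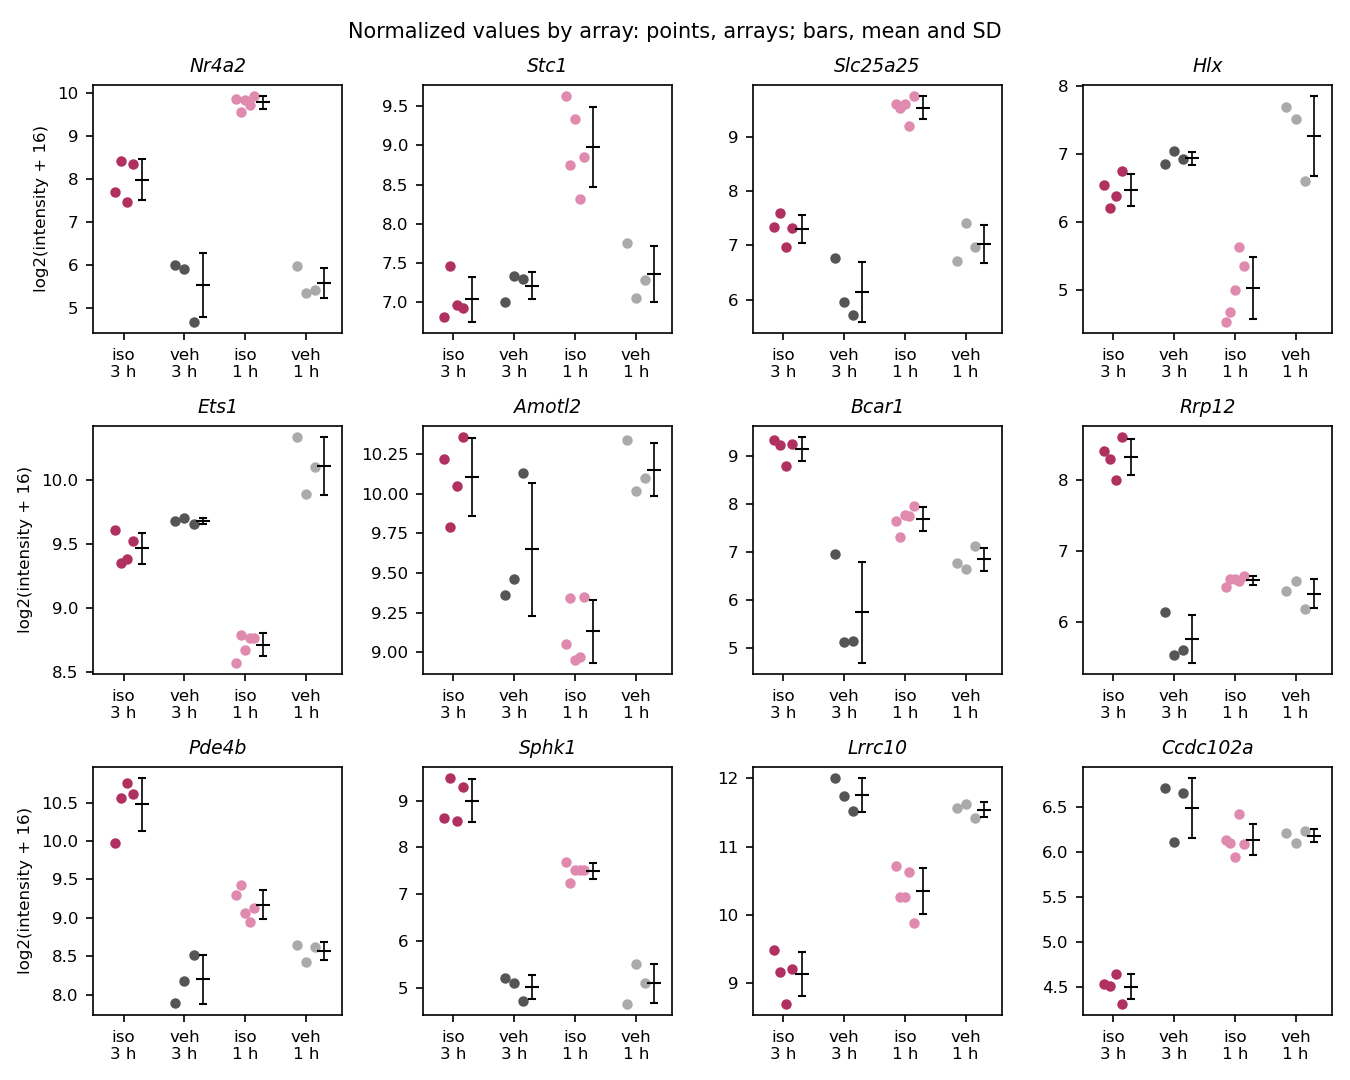
Normalized log2(intensity + 16) of 12 genes on each array, with isoproterenol (iso) and vehicle (veh) hearts of 3 h and then of 1 h; points are arrays and bars the mean and SD. Nr4a2, Stc1 and Slc25a25 peak in isoproterenol hearts of 1 h, Hlx, Ets1 and Amotl2 are lowest there, Bcar1, Rrp12, Pde4b and Sphk1 are highest in isoproterenol hearts of 3 h, and Lrrc10 and Ccdc102a are lowest in isoproterenol hearts of 3 h.

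The fading falls were called lower at 1 h and not called at 3 h, where their effect had a median of 0.46 and lay between -0.46 and 0.98. Ets1, a transcription factor abundant in endothelial and lymphoid cells, read 9.61, 9.35, 9.38 and 9.52 in isoproterenol hearts of 3 h and 9.68, 9.70 and 9.66 in vehicle hearts of 3 h. At 1 h Ets1 read 8.57, 8.79, 8.67, 8.76 and 8.76 in isoproterenol hearts of 1 h and 10.34, 9.89 and 10.10 in vehicle hearts of 1 h. Isoproterenol hearts lay below vehicle hearts at both times, with a gap of -0.22 (adjusted p = 0.305) at 3 h and -1.40 (adjusted p = 8.29e-10) at 1 h, and the interaction was 1.18 ± 0.17 (adjusted p = 0.00114). Hlx, a homeobox transcription factor, read 6.55, 6.20, 6.38 and 6.75 in isoproterenol hearts of 3 h and 6.85, 7.04 and 6.92 in vehicle hearts of 3 h. At 1 h Hlx read 4.54, 4.68, 5.00, 5.63 and 5.35 in isoproterenol hearts of 1 h and 7.69, 7.51 and 6.60 in vehicle hearts of 1 h. Its isoproterenol hearts of 1 h had a mean below the filter level, and the interaction of 1.76 ± 0.33 (adjusted p = 0.00634) understates the difference.

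Amotl2 encodes a junction protein of the angiomotin family that binds the growth regulator YAP. Amotl2 read 10.22, 9.79, 10.05 and 10.36 in isoproterenol hearts of 3 h and 9.36, 9.46 and 10.13 in vehicle hearts of 3 h. At 1 h Amotl2 read 9.05, 9.34, 8.95, 8.97 and 9.35 in isoproterenol hearts of 1 h and 10.34, 10.02 and 10.10 in vehicle hearts of 1 h. Isoproterenol hearts of 1 h were all below vehicle hearts, and at 3 h the groups overlapped at vehicle replicate 3. The interaction was 1.47 ± 0.23 (adjusted p = 0.00199). Calls for Amotl2, Ets1 and Hlx held in all 15 fits that left out 1 array, while those for Rrs1, a regulator of ribosome assembly (1.13 ± 0.27 (adjusted p = 0.0434)), and Prf1, the perforin of cytotoxic lymphocytes (1.66 ± 0.39 (adjusted p = 0.038)), held in 3 and 6 (adjusted p up to 0.127 and 0.142). Prf1 was dim in vehicle hearts of 3 h and isoproterenol hearts of 1 h.

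The largest interaction of a named gene was that of Bcar1, which encodes the focal adhesion scaffold p130Cas. Bcar1 read 9.34, 9.24, 8.79 and 9.25 in isoproterenol hearts of 3 h and 6.96, 5.13 and 5.15 in vehicle hearts of 3 h. At 1 h Bcar1 read 7.65, 7.31, 7.77, 7.76 and 7.97 in isoproterenol hearts of 1 h and 6.77, 6.65 and 7.12 in vehicle hearts of 1 h. Isoproterenol hearts lay above vehicle hearts at both times and reached their highest level at 3 h, and vehicle replicate 1 of 3 h stood above the other two. The effect was 3.41 (adjusted p = 6.86e-10) at 3 h and 0.85 (adjusted p = 0.126) at 1 h, and the interaction was 2.56 ± 0.41 (adjusted p = 0.00199). The interaction lay between 2.26 and 3.17 when single arrays were left out.

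Pde4b, a phosphodiesterase that degrades cyclic AMP, read 9.97, 10.56, 10.76 and 10.61 in isoproterenol hearts of 3 h and 7.89, 8.18 and 8.52 in vehicle hearts of 3 h. At 1 h Pde4b read 9.30, 9.43, 9.06, 8.94 and 9.13 in isoproterenol hearts of 1 h and 8.65, 8.43 and 8.62 in vehicle hearts of 1 h. The groups were apart at both times, with an effect of 2.28 (adjusted p = 2.18e-10) at 3 h and 0.61 (adjusted p = 0.0595) at 1 h, and the interaction was 1.67 ± 0.26 (adjusted p = 0.00174). The other Pde4b probe set did not pass (1.50 ± 0.39, adjusted p = 0.0727).

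Spry2, a Sprouty inhibitor of receptor tyrosine kinase signals, read 9.17, 10.21, 9.62 and 10.06 in isoproterenol hearts of 3 h and 8.13, 8.03 and 8.23 in vehicle hearts of 3 h. At 1 h Spry2 read 8.59, 8.82, 8.49, 8.75 and 8.67 in isoproterenol hearts of 1 h and 9.18, 8.67 and 8.80 in vehicle hearts of 1 h. The groups were apart at 3 h and overlapped at 1 h. Its interaction was 1.86 ± 0.30 (adjusted p = 0.00204). Of the 26 measured genes listed as kinase and cytokine feedback inhibitors, Spry2 was the only one called, against 0.731% of all genes called, and the list had a median interaction of -0.03, the same as all genes tested. Rrad, a small G protein that inhibits L-type calcium channels, read 11.90, 12.04, 12.18 and 12.27 in isoproterenol hearts of 3 h and 10.83, 10.58 and 10.61 in vehicle hearts of 3 h. At 1 h Rrad read 10.94, 10.72, 10.70, 10.98 and 10.88 in isoproterenol hearts of 1 h and 10.56, 10.73 and 10.67 in vehicle hearts of 1 h. The groups were apart at 3 h and overlapped at 1 h, and the interaction was 1.23 ± 0.22 (adjusted p = 0.00311). Rrad and the 15 further genes Slc7a5, Slc7a1, Jak2, Noct, Cblb, Angpt2, Azin1, Ddx21, Nrp1, Pla2g4a, Mthfd1l, Ptpn2, Ecscr, Bcl6b and Hspg2 were chosen for mention after their values were seen.

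Lmcd1, a LIM domain protein of muscle, read 11.25, 12.39, 11.83 and 12.04 in isoproterenol hearts of 3 h and 9.54, 9.60 and 9.79 in vehicle hearts of 3 h. At 1 h Lmcd1 read 10.26, 9.84, 10.32, 10.60 and 10.31 in isoproterenol hearts of 1 h and 9.61, 9.75 and 9.98 in vehicle hearts of 1 h. At 3 h every isoproterenol heart was above every vehicle heart, and at 1 h the groups overlapped. The interaction was 1.75 ± 0.34 (adjusted p = 0.00741). Of 23 measured stretch, hypertrophy and fetal heart genes, 3 had a called positive interaction and 0 a negative one, against 0.522% and 0.209% of all genes. Beside Lmcd1 these were Hbegf, a ligand of the EGF receptor (1.73 ± 0.41 (adjusted p = 0.0439)), and Flnc, the muscle filamin (1.11 ± 0.26 (adjusted p = 0.0395)), whose calls held in 5 and 3 of 15 fits that left out 1 array (adjusted p up to 0.143 and 0.126). The median interaction of the 23 was 0.19, against -0.03 for all genes. The natriuretic peptide genes Nppa and Nppb had interactions of -0.85 ± 0.71 (adjusted p = 0.694) and 0.47 ± 0.33 (adjusted p = 0.621), and Myh6, the adult myosin heavy chain, 0.14 ± 0.10 (adjusted p = 0.639).

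Sphk1, which makes the lipid signal sphingosine 1-phosphate, had the largest effect at 3 h among the building rises and was already called higher at 1 h. Sphk1 read 8.64, 9.49, 8.57 and 9.30 in isoproterenol hearts of 3 h and 5.22, 5.11 and 4.72 in vehicle hearts of 3 h. At 1 h Sphk1 read 7.70, 7.24, 7.52, 7.52 and 7.51 in isoproterenol hearts of 1 h and 4.66, 5.51 and 5.11 in vehicle hearts of 1 h. Vehicle hearts were dim at both times and overlapped, while isoproterenol hearts of 3 h were all above those of 1 h. The effect was 3.98 (adjusted p = 5.34e-13) at 3 h and 2.41 (adjusted p = 2.06e-08) at 1 h, with an interaction of 1.58 ± 0.35 (adjusted p = 0.0256). The call was lost without vehicle replicate 2 or 3 of 1 h, vehicle replicate 3 of 3 h, or isoproterenol replicate 2 or 4 of 3 h (adjusted p up to 0.0986). Noct, the phosphatase nocturnin, had effects of 3.38 at 3 h and 2.22 at 1 h, and an interaction of 1.15 ± 0.25 (adjusted p = 0.0221). Its isoproterenol hearts differed between the times by 0.34 (adjusted p = 0.265) and its vehicle hearts by -0.81 (adjusted p = 0.222), neither of them called.

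Slc7a5, a carrier of large neutral amino acids, had effects of 2.47 at 3 h and 0.96 at 1 h, with an interaction of 1.50 ± 0.36 (adjusted p = 0.0418). Slc7a1, a carrier of cationic amino acids, had effects of 2.10 and 0.92 at those times, with an interaction of 1.18 ± 0.27 (adjusted p = 0.0332). Mthfd1l, a mitochondrial folate enzyme, was dim in all groups but isoproterenol hearts of 3 h, with an interaction of 1.56 ± 0.36 (adjusted p = 0.0339). The 3 calls held in 6, 7 and 7 of 15 fits that left out 1 array (adjusted p up to 0.15).

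Ackr1, the Duffy receptor that binds chemokines without signalling, read 7.13, 7.48, 6.87 and 7.63 in isoproterenol hearts of 3 h and 5.39, 5.73 and 5.01 in vehicle hearts of 3 h. At 1 h Ackr1 read 6.32, 5.85, 6.05, 6.42 and 5.73 in isoproterenol hearts of 1 h and 6.08, 5.82 and 5.79 in vehicle hearts of 1 h. The groups were apart at 3 h and overlapped at 1 h, and the interaction was 1.72 ± 0.33 (adjusted p = 0.00752). Pla2g4a, the cytosolic phospholipase that frees arachidonic acid, had an effect of 1.60 at 3 h and -0.10 at 1 h, with an interaction of 1.70 ± 0.28 (adjusted p = 0.00204). Gcnt2, a glycan-branching enzyme, had 1.82 and 0.02 at those times and an interaction of 1.80 ± 0.26 (adjusted p = 0.00114). Ecscr, an endothelial surface protein, had an interaction of 1.46 ± 0.25 (adjusted p = 0.00246), and calls for Ackr1, Pla2g4a, Gcnt2 and Ecscr held in all 15 fits that left out 1 array.

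Jak2, the kinase of many cytokine receptors, had an interaction of 1.54 ± 0.33 (adjusted p = 0.0221). Ptpn2, a tyrosine phosphatase that acts on Janus kinases, had 0.92 ± 0.20 (adjusted p = 0.0207), although its other probe set had -0.03 ± 0.44. Cblb, a ubiquitin ligase that limits receptor signals, had 1.16 ± 0.26 (adjusted p = 0.0259). Angpt2, a vessel-destabilising ligand of the Tie2 receptor, had 1.36 ± 0.32 (adjusted p = 0.0401), and Hsf2, a heat shock transcription factor, 1.35 ± 0.30 (adjusted p = 0.0256). These 5 calls held in 3 to 12 of 15 fits that left out 1 array (adjusted p up to 0.13).

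Genes for making ribosomes and polyamines mostly had a higher effect at 3 h than at 1 h. Of 39 measured members, 5 had a called positive interaction and 0 a negative one, against 65 and 26 of 12451 genes (0.522% and 0.209%). The interaction was above 0 for 36 of the 39, and its median was 0.51, against -0.03 for all genes. At 3 h 23 members were called higher and 0 lower, against 6.94% and 6.33% of all genes, and at 1 h 3 were higher and 1 lower, against 2.37% and 1.04% of all genes. Within isoproterenol hearts 13 members were called higher at 3 h than at 1 h and 0 lower, against 2.38% and 2.26% of all genes. In vehicle hearts none of the list was called, and the median difference was -0.13. The median interaction lay between 0.40 and 0.67 in every alternative fit run, while the count of called members lay between 0 (no normalization) and 6. It was 1 without vehicle replicate 1 or 3 of 1 h, and without isoproterenol replicate 3 of 3 h.

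Rrp12, which acts in pre-ribosome maturation and export, led the list. Rrp12 read 8.41, 8.30, 8.0 and 8.61 in isoproterenol hearts of 3 h and 6.14, 5.53 and 5.60 in vehicle hearts of 3 h. At 1 h Rrp12 read 6.49, 6.61, 6.61, 6.57 and 6.64 in isoproterenol hearts of 1 h and 6.43, 6.58 and 6.18 in vehicle hearts of 1 h. Isoproterenol hearts of 3 h stood above all others, and the 1 h groups overlapped. The effect was 2.57 (adjusted p = 8.39e-07) at 3 h and 0.19 (adjusted p = 0.877) at 1 h, with an interaction of 2.39 ± 0.45 (adjusted p = 0.00634). Its other probe sets had interactions of 1.25 ± 0.39 (adjusted p = 0.141) and 1.06 ± 0.46 (adjusted p = 0.328).

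Nop58, a core protein of small nucleolar ribonucleoproteins, had an interaction of 1.39 ± 0.31 (adjusted p = 0.0277). Azin1, which protects ornithine decarboxylase from breakdown, had 0.96 ± 0.21 (adjusted p = 0.0224). Ddx21, a nucleolar RNA helicase, had 0.87 ± 0.21 (adjusted p = 0.0497), and Rrs1 is given above among the fading falls. Calls for Nop58, Azin1 and Ddx21 held in 9, 9 and 1 of 15 fits that left out 1 array (adjusted p up to 0.164). Other probe sets of some called genes did not pass, with interactions of 0.31 ± 0.30 for Azin1, 0.71 ± 0.31 for Ddx21, 1.10 ± 0.45 for Flnc, 1.34 ± 0.38 for Slc7a1 and 0.38 to 1.07 for the 3 others of Hsf2. Rrp8, a nucleolar protein outside the list, had an interaction of 1.84 ± 0.30 (adjusted p = 0.00204) that held in all 15. Myc, a transcription factor that drives ribosome genes and was counted in the list, was high at both times, with effects of 3.46 (adjusted p = 1.14e-08) at 3 h and 2.98 (adjusted p = 1.31e-07) at 1 h and an interaction of 0.49 ± 0.47 (adjusted p = 0.75).

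**Figure D3:**
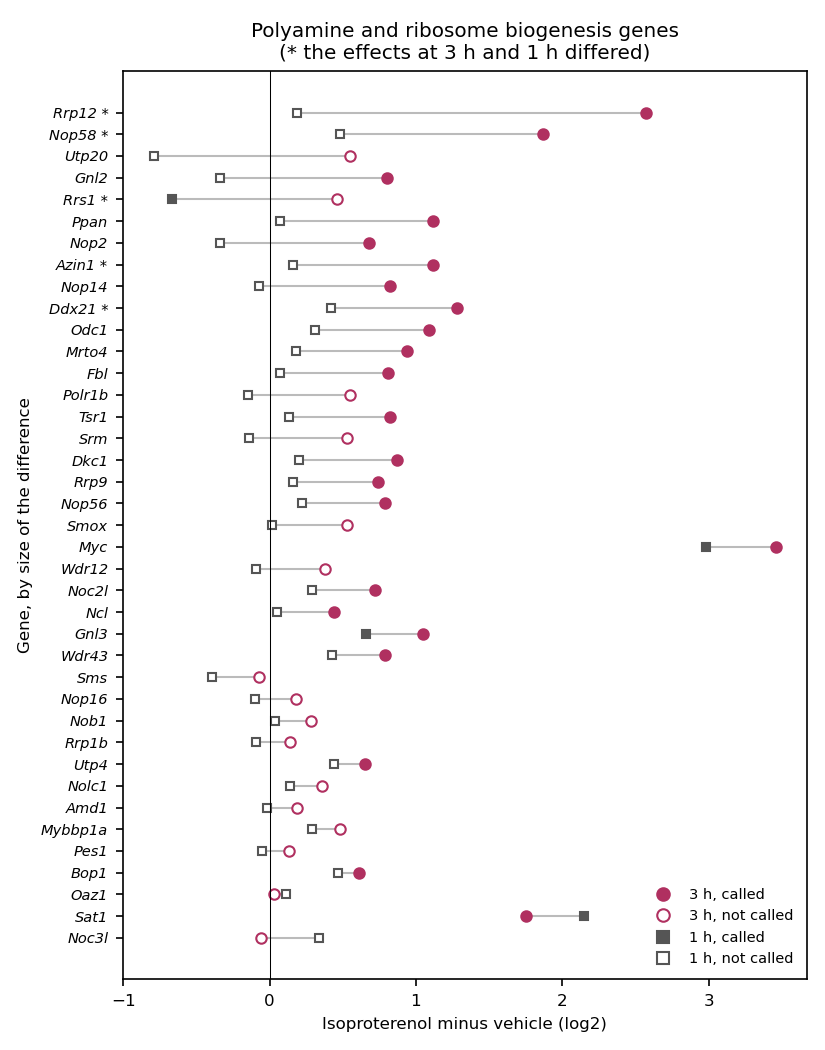
Isoproterenol minus vehicle difference (log2) of the 39 measured polyamine and ribosome biogenesis genes at 3 h (circles) and 1 h (squares), filled where called, ordered by the difference between the times. The 3 h value lies to the right of the 1 h value for 36 genes, Sat1, Oaz1 and Noc3l being the others, and 5 genes marked with an asterisk had a called interaction.

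Among the building falls, Lrrc10, a cardiomyocyte protein of sarcomere and nucleus, read 9.48, 9.17, 8.70 and 9.21 in isoproterenol hearts of 3 h and 12.01, 11.75 and 11.52 in vehicle hearts of 3 h. At 1 h Lrrc10 read 10.72, 10.26, 10.27, 10.63 and 9.88 in isoproterenol hearts of 1 h and 11.57, 11.63 and 11.42 in vehicle hearts of 1 h. Isoproterenol hearts were below vehicle hearts at both times, and those of 3 h were below those of 1 h. The effect was -2.62 (adjusted p = 1.04e-11) at 3 h and -1.18 (adjusted p = 4.12e-05) at 1 h, with an interaction of -1.44 ± 0.26 (adjusted p = 0.00458). Of 19 measured cardiomyocyte markers Lrrc10 was the only one called, against 0.209% of all genes called negative, and the median interaction of the list was -0.01.

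Ccdc102a, a coiled-coil protein gene, had the most negative interaction of the building falls. Ccdc102a read 4.54, 4.52, 4.65 and 4.32 in isoproterenol hearts of 3 h and 6.71, 6.11 and 6.65 in vehicle hearts of 3 h. At 1 h Ccdc102a read 6.13, 6.10, 5.94, 6.42 and 6.09 in isoproterenol hearts of 1 h and 6.21, 6.10 and 6.23 in vehicle hearts of 1 h. Isoproterenol hearts of 3 h lay below the other 3 groups, and had a mean below the filter level. The interaction was -1.94 ± 0.27 (adjusted p = 0.000813), while the other Ccdc102a probe set did not pass (-0.86 ± 0.47, adjusted p = 0.467).

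Nrp1, a co-receptor for VEGF and semaphorins, read 8.90, 8.71, 8.83 and 8.39 in isoproterenol hearts of 3 h and 10.23, 10.87 and 10.35 in vehicle hearts of 3 h. At 1 h Nrp1 read 9.79, 10.12, 10.06, 10.08 and 9.78 in isoproterenol hearts of 1 h and 10.75, 10.40 and 10.62 in vehicle hearts of 1 h. Isoproterenol hearts lay below vehicle hearts at both times and lower at 3 h, with an interaction of -1.16 ± 0.24 (adjusted p = 0.0165) that was lost without vehicle replicate 2 of 1 h or of 3 h (adjusted p up to 0.0789). Its other probe set had -1.59 ± 0.27 (adjusted p = 0.00228). Heyl, a transcriptional repressor downstream of Notch, read 6.65, 6.56, 5.45 and 6.63 in isoproterenol hearts of 3 h and 8.07, 8.36 and 7.57 in vehicle hearts of 3 h. At 1 h Heyl read 7.73, 7.43, 7.32, 7.72 and 7.64 in isoproterenol hearts of 1 h and 7.51, 7.68 and 7.70 in vehicle hearts of 1 h. The groups were apart at 3 h and overlapped at 1 h, and the interaction was -1.61 ± 0.34 (adjusted p = 0.0178), but the other Heyl probe set gave 0.18 ± 0.28 (adjusted p = 0.869). The Heyl call was lost without vehicle replicate 1 of 1 h or vehicle replicate 1 or 2 of 3 h (adjusted p up to 0.0723).

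Emcn, the endothelial surface protein endomucin, read 7.79, 7.67, 7.74 and 7.81 in isoproterenol hearts of 3 h and 9.08, 9.32 and 8.53 in vehicle hearts of 3 h. At 1 h Emcn read 8.92, 8.67, 8.96, 8.88 and 8.35 in isoproterenol hearts of 1 h and 9.08, 8.91 and 8.74 in vehicle hearts of 1 h. The groups were apart at 3 h and overlapped at 1 h. Its interaction of -1.07 ± 0.25 (adjusted p = 0.0338) was called in 5 of 15 fits that left out 1 array (adjusted p up to 0.128), and it was the only called gene of 13 measured endothelial markers (0.209% of all genes were called negative), which had a median interaction of -0.02. Of the 13, 5 were called lower and 1 higher at 3 h, against 6.33% and 6.94% of all genes. At 1 h 1 was lower and 2 higher, against 1.04% and 2.37%. Within isoproterenol hearts 3 were lower at 3 h than at 1 h and 1 higher, against 2.26% and 2.38%. The summed intensity of the 13 was 6090 to 7220 in isoproterenol hearts and 6860 to 8010 in vehicle hearts of 3 h. At 1 h it was 6950 to 8220 in isoproterenol hearts and 6900 to 7730 in vehicle hearts, and its part in these falls was not tested.

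Further building falls were Pik3ap1, an adaptor of phosphoinositide 3-kinase (-1.67 ± 0.30 (adjusted p = 0.00458)), Aasdh (-1.63 ± 0.29 (adjusted p = 0.00336)) and Tp53i11 (-1.36 ± 0.26 (adjusted p = 0.00662)), all called in all 15 fits that left out 1 array. Adamts6, a secreted metalloprotease, had -1.82 ± 0.35 (adjusted p = 0.00728) and was dim in isoproterenol hearts of 3 h and vehicle hearts of 1 h. Hspg2, the basement membrane proteoglycan perlecan, had -0.94 ± 0.22 (adjusted p = 0.0355), with a difference between the times of -0.15 (adjusted p = 0.673) in isoproterenol hearts and 0.80 (adjusted p = 0.116) in vehicle hearts. Bcl6b, a transcriptional repressor, had -1.03 ± 0.24 (adjusted p = 0.0338), and its 3 other probe sets did not pass (-0.62, -0.55 and -0.20). The Hspg2 and Bcl6b calls each held in 6 of 15 fits (adjusted p up to 0.111 and 0.141). The interaction calls of 23 of the 35 building falls were lost under median centring, and 12 remained.

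Separating drug from vehicle, the interaction equals the change of isoproterenol hearts between 1 h and 3 h minus that of vehicle hearts. Between 3 h and 1 h, 982 probe sets (4.04%) were called in isoproterenol hearts, 2.15% higher and 1.89% lower at 3 h. In vehicle hearts 3 were called (0.0123%), all 3 of them lower at 3 h. An unadjusted limma p below 0.05 was found for 4023 in isoproterenol hearts and 2106 in vehicle hearts. The changes had an SD over probe sets of 0.34 and 0.32, and a median standard error of 0.21 and 0.26. With fewer vehicle arrays a vehicle change was harder to call, so counts of calls do not compare the sizes of the changes. Of the 141 called interactions, the isoproterenol change was called and the vehicle change was not for 128, the reverse held for 1 (Sgk1), and neither was called for 12. The vehicle change was larger than the isoproterenol change for 14. In 126 of the 141 the isoproterenol hearts of 3 h all lay on 1 side of those of 1 h, against 7.49% of all probe sets, and in 56 the vehicle hearts did so, against 15.2% of all.

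The vehicle change still entered the interactions. Its sign was opposite to the isoproterenol change in 123 of the 141, which choosing by the difference of the 2 changes favours by construction. It made up a median of 25.0% of the interaction over the 141, 27.2% over building rises, 22.3% over building falls, 35% over fading falls and -2.23% over fading rises. The rises that faded thus faded in isoproterenol hearts, with a median change of -1.50 there and -0.04 in vehicle hearts. Since both changes are parts of the tested difference, these shares are a description and no further test.

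**Figure D4:**
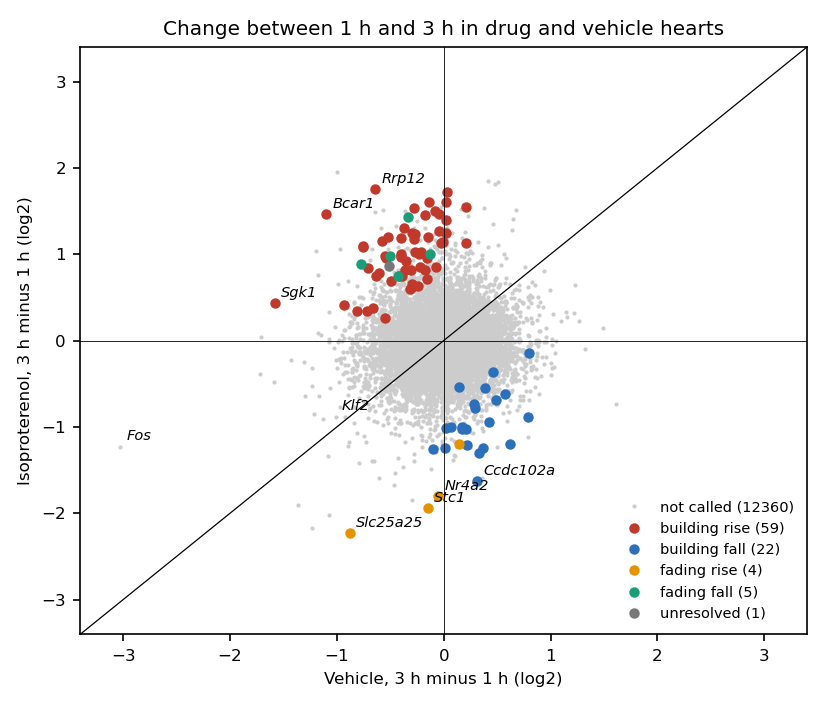
Difference between 3 h and 1 h in isoproterenol hearts (vertical axis, log2) against that in vehicle hearts (horizontal axis, log2), with 1 point per gene and the line of equal change. Called genes lie spread along the vertical axis, most building rises to the left of 0 and most building falls to the right. Sgk1 and Bcar1 lie farthest left of the called genes. Fos and Klf2 also lie left on the vehicle axis and are not called for the interaction.

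Of 12451 genes, 578 (4.64%) were called between the times in isoproterenol hearts and 3 (0.0241%) in vehicle hearts, namely Fos, Sgk1 and Klf2. Sgk1, the serum- and glucocorticoid-regulated kinase, read 10.49, 10.41, 10.14 and 10.64 in isoproterenol hearts of 3 h and 7.36, 7.93 and 7.69 in vehicle hearts of 3 h. At 1 h Sgk1 read 9.57, 10.31, 10.11, 9.84 and 10.13 in isoproterenol hearts of 1 h and 9.88, 9.39 and 8.44 in vehicle hearts of 1 h. Isoproterenol hearts were high at both times and overlapped, while vehicle hearts of 3 h were the lowest and lay below all other arrays. The vehicle change was -1.58 ± 0.25 (adjusted p = 0.00637) and the isoproterenol change 0.43 ± 0.21 (adjusted p = 0.292), so the interaction of 2.01 ± 0.33 (adjusted p = 0.00204) came mostly from the vehicle hearts. The effect was 2.76 (adjusted p = 5.81e-10) at 3 h and 0.75 (adjusted p = 0.0699) at 1 h.

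Fos, which pairs with Jun proteins to form AP-1, read 8.57, 11.71, 9.72 and 10.59 in isoproterenol hearts of 3 h and 5.65, 5.19 and 5.78 in vehicle hearts of 3 h. At 1 h Fos read 11.33, 11.53, 11.38, 11.30 and 11.36 in isoproterenol hearts of 1 h and 8.76, 8.66 and 8.27 in vehicle hearts of 1 h. Isoproterenol hearts were above vehicle hearts at both times, the vehicle hearts of 3 h were all below those of 1 h, and isoproterenol replicates of 3 h spread widely. The vehicle change was -3.03 ± 0.49 (adjusted p = 0.00637) and the isoproterenol change -1.23 ± 0.40 (adjusted p = 0.0818). The interaction was not called (1.79 ± 0.63 (adjusted p = 0.21)), except without isoproterenol replicate 1 of 3 h, where it was 2.32 (adjusted p = 0.0418).

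Klf2, a Krüppel-like factor responsive to flow in endothelium, read 9.79, 9.79, 9.48 and 9.69 in isoproterenol hearts of 3 h and 9.52, 9.55 and 9.51 in vehicle hearts of 3 h. At 1 h Klf2 read 10.62, 10.45, 10.61, 10.45 and 10.71 in isoproterenol hearts of 1 h and 10.76, 10.77 and 10.09 in vehicle hearts of 1 h. Both treatments were lower at 3 h, and isoproterenol and vehicle hearts overlapped at each time. The vehicle change was -1.01 ± 0.16 (adjusted p = 0.00637), the isoproterenol change -0.88 ± 0.13 (adjusted p = 4.89e-05), and the interaction 0.13 ± 0.20 (adjusted p = 0.865). The 3 other Klf2 probe sets had interactions of -0.32, -0.25 and 0.15. Their vehicle changes were 0.08, -0.78 and -0.06, none of them called by limma (adjusted p = 0.958, 0.521 and 0.975). Their isoproterenol changes were -0.25, -1.03 and 0.09, of which only -1.03 was called (adjusted p = 0.0357). The vehicle calls of Fos, Sgk1 and Klf2 were all lost without vehicle replicate 1 of 1 h, where limma called 0 probe sets (1439 at an unadjusted p below 0.05). They were also lost without vehicle replicate 2 of 1 h (0 called, 1766 at an unadjusted p below 0.05). The Fos vehicle call was also lost without vehicle replicate 2 of 3 h (adjusted p = 0.0925), with a pseudocount of 64 (0.0869) and with robust variances (0.062). Without normalization the Sgk1 and Klf2 vehicle calls were lost (adjusted p = 0.147 and 0.654).

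**Figure D5:**
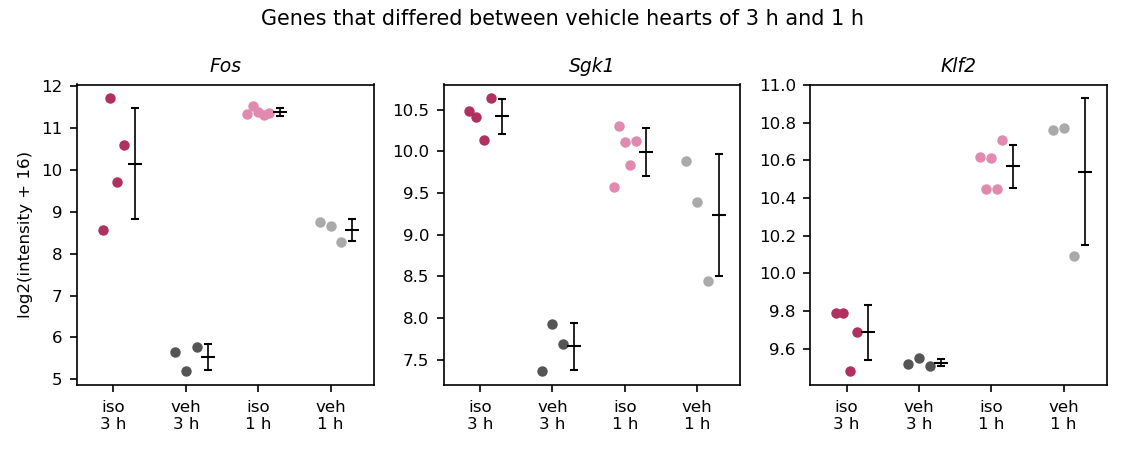
Normalized log2(intensity + 16) of Fos, Sgk1 and Klf2 on each array, with isoproterenol (iso) and vehicle (veh) hearts of 3 h and then of 1 h; points are arrays and bars the mean and SD. Vehicle hearts of 3 h are the lowest group for Fos and Sgk1, and for Klf2 both groups of 3 h lie below both groups of 1 h.

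Immediate early transcription factors, the class best known for brief induction, had 1 called interaction. Of 28 measured, Nr4a2 was called, negative (0.209% of all genes), and 24 were called higher at 3 h and 20 at 1 h, against 6.94% and 2.37% of all genes. The median interaction of the list was 0.25. In isoproterenol hearts alone, 8 were called lower and 3 higher at 3 h than at 1 h, against 2.26% and 2.38% of all genes, beside a median vehicle change of -0.30. Nr4a1, an orphan nuclear receptor, was lower at 3 h than at 1 h in isoproterenol hearts (-2.17 (adjusted p = 1.26e-06)), and its vehicle change was -1.23 (adjusted p = 0.222), leaving an interaction of -0.95 ± 0.39 (adjusted p = 0.301). Fosb, an AP-1 subunit, was likewise lower in isoproterenol hearts of 3 h (-1.39 (adjusted p = 0.000511)), with an interaction of -0.72 ± 0.38 (adjusted p = 0.45).

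Further immediate early genes had interactions that did not pass. Nr4a3, the third orphan receptor, had effects of 5.97 at 3 h and 4.92 at 1 h and an interaction of 1.06 ± 0.57 (adjusted p = 0.469). Other Nr4a3 probe sets had interactions of -0.02 and 0.56. Egr1 and Atf3, zinc finger and stress-induced transcription factors, had interactions of 1.20 ± 0.51 (adjusted p = 0.316) and 0.70 ± 0.53 (adjusted p = 0.651), and Jun, an AP-1 subunit, 0.43 ± 0.33 (adjusted p = 0.661). Other Jun probe sets had 0.23 and -0.13. With standard errors of 0.33 to 0.63 for Jun, Fosb, Nr4a1, Egr1, Atf3, Nr4a3 and Fos, differences of this size could not be told from 0 at this number of arrays. Of 21 measured cyclic AMP and CREB targets, Pde4b was called positive and Nr4a2 negative, against 0.522% and 0.209% of all genes, and the median was -0.26. Crem, which encodes cyclic AMP-responsive activators and repressors, had effects of 3.59 at 3 h and 2.98 at 1 h and an interaction of 0.61 ± 0.24 (adjusted p = 0.271). Interactions of other Crem probe sets lay between -0.47 and 0.61, and none was called.

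Of 31 measured cytokine, chemokine and adhesion genes, 11 were called higher at 3 h and 8 at 1 h, against 6.94% and 2.37% of all genes. By the brightest probe set of each gene, their 0 called interactions are near the share of 0.731% over all genes. With each gene taken as the mean of its probe sets, 1 of the 31 was called positive and 0 negative. A probe set of the cytokine gene Csf1, not its brightest, had an interaction of 2.01. It was a building rise and was called in all 15 fits that left out 1 array. This probe set was chosen for mention after its values were seen. The brightest Csf1 probe set, which stands for the gene in the counts, was not called. Il6, an inflammatory cytokine, had effects of 3.35 at 3 h and 4.69 at 1 h and an interaction of -1.34 ± 0.56 (adjusted p = 0.306), with vehicle hearts dim at both times. Ccl2, a monocyte chemokine, had 3.49 and 2.16 at those times and 1.33 ± 0.59 (adjusted p = 0.348). Cxcl1, a neutrophil chemokine, had 0.25 ± 0.51 (adjusted p = 0.91), and Socs3, a feedback inhibitor of cytokine signals, -0.90 ± 0.40 (adjusted p = 0.342). Il6, Ccl2 and Socs3 differ in the sign of the interaction, and none passed.

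Of 14 listed neutrophil markers, 6 passed the filter, and these differed in level between the groups. Their summed intensity over 6 measured genes was 475 to 709 in isoproterenol hearts and 157 to 239 in vehicle hearts of 3 h, and 252 to 340 in isoproterenol hearts and 119 to 169 in vehicle hearts of 1 h. The isoproterenol hearts of 3 h stood above all others, and only the 2 vehicle groups overlapped. At 3 h 4 of the 6 were called higher and at 1 h 2, against 6.94% and 2.37% of all genes, and the 6 interactions, 0 of them called, had a median of 0.58. The filter asks for an intensity of 23 in at least 3 arrays, so a marker could pass through isoproterenol hearts alone. Vehicle sums were low beside that level, and the counts are a description. The part of the neutrophil marker difference in the results above was not tested. Sums for lymphocyte and mast cell markers were 258 to 290 in isoproterenol hearts and 348 to 405 in vehicle hearts of 3 h, and 288 to 428 in isoproterenol hearts and 305 to 389 in vehicle hearts of 1 h. Sums for adipocyte markers were 2510 to 3820 in isoproterenol hearts and 3930 to 5400 in vehicle hearts of 3 h, and 3490 to 3900 in isoproterenol hearts and 4030 to 4440 in vehicle hearts of 1 h.

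Angptl4, an inhibitor of lipoprotein lipase, had effects of 4.01 at 3 h and 1.98 at 1 h and an interaction of 2.03 ± 0.55 (adjusted p = 0.0845). Hmox1, the heme-degrading oxygenase, had 1.80 ± 0.54 (adjusted p = 0.119), the metallothionein Mt2A 1.73 ± 0.66 (adjusted p = 0.254), and Timp1, an inhibitor of metalloproteinases, 1.68 ± 0.74 (adjusted p = 0.342). Hspa1a, an inducible chaperone, had 1.19 ± 0.50 (adjusted p = 0.307). Klf15, a repressor of cardiac growth genes, had effects of -2.10 at 3 h and -0.85 at 1 h and an interaction of -1.25 ± 0.33 (adjusted p = 0.0772). Other Klf15 probe sets had interactions of -0.45 and -1.13. In the fit of the 15 arrays alone the interactions of Klf15, Hmox1 and Timp1 passed (adjusted p = 0.0112, 0.025 and 0.0387). With array weights those of Klf15 and Angptl4 passed (0.0174 and 0.0337), and that of Angptl4 also passed without isoproterenol replicate 2 of 3 h (0.0382).

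Interactions that did not pass were also measured for Pdk4, an inhibitor of pyruvate dehydrogenase (0.15 ± 0.42 (adjusted p = 0.941)), and Aplnr, the apelin receptor (0.47 ± 0.45 (adjusted p = 0.742)), whose effects were -2.25 at 3 h and -2.72 at 1 h. Another Aplnr probe set gave -0.79 ± 0.47. Clock genes were not called, with Per1 at -0.95 ± 0.75 (adjusted p = 0.668), Dbp at -0.44 ± 0.51 (adjusted p = 0.804) and Bmal1 at -0.49 ± 0.41 (adjusted p = 0.696). The receptor gene Adrb1 had -0.61 ± 0.31 (adjusted p = 0.436) and the calcium pump inhibitor Pln -0.00 ± 0.12 (adjusted p = 0.996). With 0.731% of all genes called, 0 calls are near the background in lists of this size, and 0 were found among 35 measured oxidative phosphorylation genes, 36 of fatty acid oxidation and lipid use, 29 of glucose use, 29 ion channel and calcium genes, 27 of beta-adrenergic signalling and 27 of endoplasmic reticulum stress.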

How the data were processed

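Total RNA of rat heart was hybridised to RAT230_2 one-colour arrays, per the labels' protocols. The deposited values are linear intensity values per probe set made by the authors, with summarisation and scaling not given in sources used here. The 57 control probe sets were left out, and probe sets at or above an intensity of 23 (the 40th percentile) in at least 3 arrays were kept. Values were quantile normalized as log2(intensity + 16), and limma 3.58.1 in R 4.3.3 was fitted with lmFit and eBayes (intensity trend) to 8 group means over all 30 arrays, with 22 residual degrees of freedom, for 24292 probe sets. Contrasts were the interaction, the effect at each time and the change of each treatment between the times, adjusted by Benjamini-Hochberg within each contrast. The fit was tested on simulated data.

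Probe sets were named through the platform annotation and RefSeq, 20826 of 31099 to 1 gene, and a gene was taken by its probe set with the highest mean. For the lists, a further fit took each gene as the mean of its tested probe sets. In that fit 2 immediate early factors were called negative, and 2 feedback inhibitors and 4 ribosome and polyamine genes positive. Stretch, hypertrophy and fetal heart genes then had 3 positive and 1 negative call, and hypoxia and angiogenesis genes 3 and 0. Genes were named by rule: the 10 largest called interactions in each direction, up to 5 in each class, up to 3 called members of each list, called vehicle changes and a set list of well-known genes. Further genes are marked in the text as chosen after their values were seen. The comparison, the 30 gene lists (645 genes measured) and the named genes were chosen with earlier results of these data known. Groups whose mean lay below the filter level are called dim, and a difference between a dim and a brighter group understates the change. Alternatives were other pseudocounts (4 and 64), filters, scalings, variance settings, array weights, the 15 arrays alone, a replicate block and leaving out each array. Deviations of same-numbered arrays from their group means had correlations of -0.101 to 0.118. With so few arrays in a group this cannot exclude that the numbers pair the samples, and the main fit was unpaired.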

Additional observations from a re-analysis of the deposited data

Results flagged for a closer look

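By the interaction test in limma, the effect of isoproterenol was called different between 3 h and 1 h for 141 probe sets. Of these, 47 were called in all 15 fits that left out 1 array. The named genes that follow were called in the main fit, each with its difference on the log2 scale. Some of these calls held in few of the 15 fits, or were not shared by another probe set, as given above. None held without normalization. The building rises were Bcar1 (2.56), Rrp12 (2.39), Sgk1 (2.01), Spry2 (1.86), Rrp8 (1.84), Gcnt2 (1.80), Lmcd1 (1.75), Hbegf (1.73), Ackr1 (1.72), Pla2g4a (1.70), Pde4b (1.67), Sphk1 (1.58), Mthfd1l (1.56), Jak2 (1.54) and Slc7a5 (1.50). Smaller building rises were Ecscr (1.46), Nop58 (1.39), Angpt2 (1.36), Hsf2 (1.35), Rrad (1.23), Slc7a1 (1.18), Cblb (1.16), Noct (1.15), Flnc (1.11), Azin1 (0.96), Ptpn2 (0.92) and Ddx21 (0.87). The building falls were Ccdc102a (-1.94), Adamts6 (-1.82), Pik3ap1 (-1.67), Aasdh (-1.63), Heyl (-1.61), Lrrc10 (-1.44), Tp53i11 (-1.36), Nrp1 (-1.16), Emcn (-1.07), Bcl6b (-1.03) and Hspg2 (-0.94). The fading rises were Stc1 (-1.79), Nr4a2 (-1.75), Slc25a25 (-1.35) and Drd1 (-1.34), and the fading falls Hlx (1.76), Prf1 (1.66), Amotl2 (1.47), Ets1 (1.18) and Rrs1 (1.13). B3galnt1 (1.37) was in no class. The classes rest on the difference from vehicle hearts. For Sgk1, Noct and Hspg2 the isoproterenol change between the times was not called (0.43, 0.34 and -0.15). Their vehicle changes were larger (-1.58, -0.81 and 0.80), and of these only that of Sgk1 was called.

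A single array stood far from the rest of its group in 8 of 156 pairs of named gene and isoproterenol group, by Dixon's criterion, which chance meets in about 1 of 20. In isoproterenol hearts of 3 h, replicate 2 had 8.53 for Hbegf (nearest 7.52), 4.47 for Drd1 (nearest 4.16) and 8.48 for Nppa (nearest 10.45). Replicate 3 of that group had 5.45 for Heyl (nearest 6.56) and 4.86 for Per1 (nearest 7.34). In isoproterenol hearts of 1 h, replicate 4 had 9.08 for Myc (nearest 8.66), 10.66 for Crem (nearest 11.21) and 8.48 for Per1 (nearest 8.93).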

How the results depend on the processing

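No result reversed under any alternative run, and the interactions of the 141 called probe sets kept their sign in each where they were tested. Without normalization, with array medians spanning 0.723 on the log2 scale, 5 interactions were called (5 higher, 0 lower), 478 effects at 3 h, 190 at 1 h, 110 changes in isoproterenol hearts and 1 in vehicle hearts, with 2 building rises, 0 building falls, 0 fading rises and 3 fading falls. The median over all probe sets was then -0.189 for the effect at 3 h, -0.227 at 1 h, -0.206 for the isoproterenol change and -0.248 for the vehicle change. Median centring gave 91 higher and 18 lower interactions, 634 changes in isoproterenol hearts, 12 building falls, 6 fading rises and 1 opposite call. Trimmed mean scaling gave 220 interactions (172 higher, 48 lower), 157 building rises, 11 fading falls and 2 opposite calls. The 15 arrays alone gave 254 (176 higher, 78 lower), 6 vehicle changes, 163 building rises, 64 building falls, 11 fading falls and 3 opposite calls. Array weights gave 493 (327 higher, 166 lower), 1699 effects at 1 h, 136 vehicle changes, 276 building rises, 113 building falls, 36 fading rises, 33 fading falls and 15 opposite calls. A pseudocount of 4 gave 6 vehicle changes, a pseudocount of 64 gave 18 fading rises, and the 60th percentile filter gave 10 fading falls. With the replicate number as a block, 97 interactions (66 higher, 31 lower), 6 fading rises and 1 opposite call were found. The causes of these differences were not tested.

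Leaving out single arrays gave 65 to 197 interactions (38 to 129 higher, 23 to 68 lower), 1868 to 3024 effects at 3 h, 393 to 693 at 1 h, 723 to 1072 changes in isoproterenol hearts and 0 to 10 in vehicle hearts. Classes held 35 to 121 building rises, 18 to 54 building falls, 5 to 13 fading rises, 3 to 7 fading falls and 0 to 2 opposite calls. Of the 141, 47 were called in all 15 such fits. With 3 vehicle arrays a time, the number of arrays limits the precision.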

Other observations

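Of the 91 genes with a called interaction, 19 were in a gene list and 72 in none. Glucocorticoid targets had a median interaction of 0.45 over 18 measured genes, against -0.03 for all genes, with 1 called (Sgk1), against 0.522% of all genes called positive. Their median change between 3 h and 1 h in vehicle hearts was -0.55, against -0.01 for all genes, and 4 of the 18 were called lower and 0 higher at 3 h in isoproterenol hearts, against 2.26% and 2.38% of all genes. Hypoxia and angiogenesis genes had 3 called positive and 1 called negative interaction of 33 measured, against 0.522% and 0.209% of all genes, with a median of 0.17. Krüppel-like and heart transcription factors had a median interaction of -0.25. By the brightest probe set of each gene 0 of 30 were called, against 0.731% of all genes. With each gene taken as the mean of its probe sets, 3 of the 30 were called negative and 0 positive. Of the 30, 9 were called lower and 4 higher at 3 h, against 6.33% and 6.94% of all genes.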
